A study of Mus musculus with 4 samples.

Results

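The collagen and matrix remodelling genes are a set of 42 named genes whose products build, cross-link, degrade or signal to the extracellular matrix. They were listed by name, with earlier results of these data known. A gene counted as measured when a probe of the array carried its symbol as the only gene symbol, and its value was the mean over all such probes. By that rule 38 genes were measured under the listed symbol, and Ctgf, which the annotation lists under its current symbol Ccn2, was added through its synonym. This gave 39 measured genes with 132 probes, out of 19087 genes on the array. Col6a3, Hspg2 and Fbn1 were not analysed here.

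Most of the liver is made of hepatocytes, with a thin matrix in the space between them and the sinusoids and denser collagen around portal tracts and vessels. Hepatic stellate cells store retinoids when at rest. After injury they can become contractile myofibroblasts under the growth factors TGF-beta and PDGF, and then make much of the fibrillar collagen of a scar. Matrix metalloproteinases (MMPs) cut matrix proteins, and tissue inhibitors of metalloproteinases (TIMPs) block them, so that the amount of matrix depends on synthesis and on breakdown.

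The study compared liver RNA on 4 arrays, each hybridised with RNA of 2 mice in 2 dyes. One side of each array held a resveratrol-treated mouse whose Wrn protein lacked a functional helicase domain, and the other side an untreated wild-type mouse. Wrn is a DNA helicase whose loss in people causes Werner syndrome, a disorder of premature ageing, and resveratrol is a plant polyphenol. All animals were male C57Bl/6 mice aged 9 months with free access to food and water, and the sources used here do not give the dose or duration of resveratrol. The 4 mutants were different animals, and 2 wild-type animals served on 2 arrays each, animal 2 on arrays 1 and 3 and animal 4 on arrays 2 and 4. Mutant RNA was in Cy5 on the first pair of arrays (1 and 2) and in Cy3 on the dye-swapped pair (3 and 4). Genotype and treatment differed together, so that their shares cannot be told apart.

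Values are deposited log2 ratios, in which a ratio above 0 likely means more signal from the treated mutant than from the wild type. The dyes do not settle that direction: its basis is the order of the channels and the wording of the series title. Whether arrays 3 and 4 were already turned to the direction of arrays 1 and 2 is not stated either, and means with those 2 arrays turned are given for each of the 39 genes whose sign they change. Over all probes the correlation between arrays of the same dye orientation was 0.19 (arrays 1 and 2) and 0.21 (arrays 3 and 4). Between orientations it ran from -0.18 (arrays 1 and 3) to 0.11 (arrays 2 and 4), and both of these pairs share a wild-type animal. Intensities were not used here, so a gene near background cannot be told from one with a strong signal, and the liver label cannot be checked against the level of its markers. In whole tissue, fewer cells of a type and less RNA per cell cannot be told apart. The number of arrays limits the precision.

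No matrix gene passed the threshold between treated mutants and wild types. With limma's test and Benjamini-Hochberg adjustment over all genes, 0 of the 39 had an adjusted p under 0.05, against 0.246% of all 19087 genes, and the smallest adjusted p among the 39 was 0.544. At an unadjusted p under 0.05 there were 2 of 39, Loxl1 and Timp3, beside 6.64% of all genes. The median of the 39 mean ratios was 0.0266, against -0.0046 over all genes, and 21 of the 39 lay above 0. In size, the median mean ratio was 0.16 for the matrix genes and 0.19 for all genes. All but Loxl1 and Timp3 had a mean between -0.5 and 0.5, that is 37 of 39 or 94.9%, beside 88% of all genes.

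**Figure D1:**
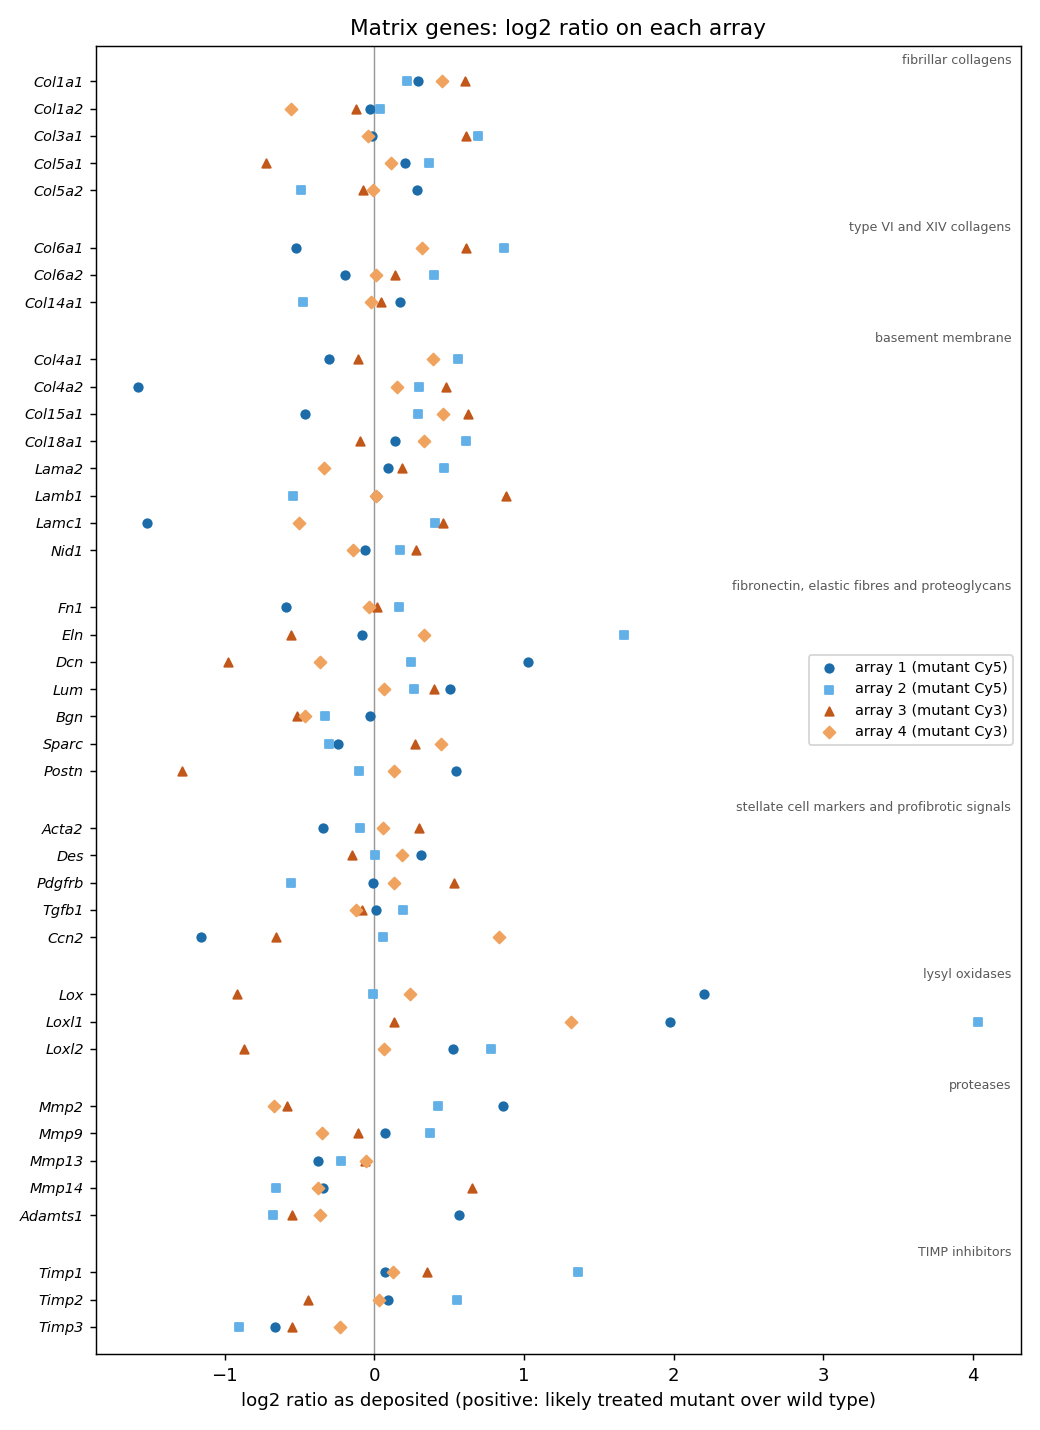
Log2 ratio of each of the 39 measured matrix genes on arrays 1 to 4 (points, by array and by the dye of the mutant), ordered by role. Most genes have points on both sides of 0, and the widest spreads are those of Loxl1 (0.13 to 4.04) and Lox (-0.92 to 2.20).

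A p that misses the threshold does not show that these genes were equal. The confidence intervals show how large a difference limma's fit leaves possible. For 31 of the 39 genes limma's 95% interval lay wholly between -1 and 1, that is within a 2-fold change in either direction, as it did for 73.7% of all genes. The 8 genes whose interval reached beyond that range were Lox, Loxl1, Eln, Lamc1, Ccn2, Col4a2, Timp1 and Timp3. These intervals are not adjusted for the number of genes. They hold for the ratios as deposited and treat the arrays as independent although wild-type animals were shared, so they are not firm bounds.

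**Figure D2:**
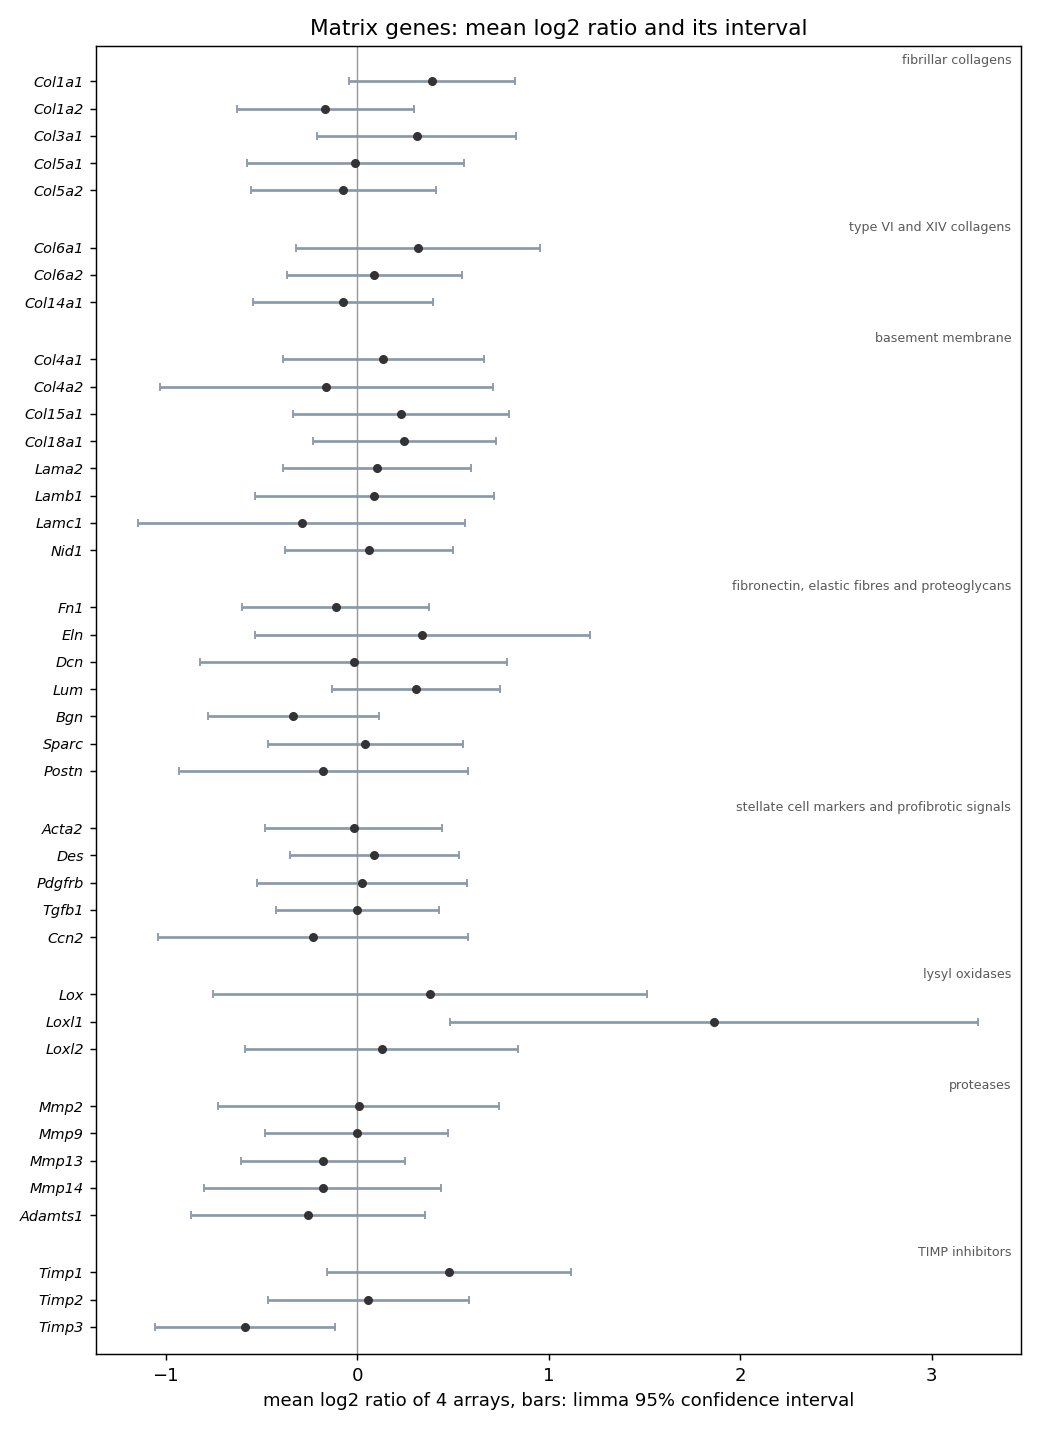
Mean log2 ratio over the 4 arrays (points) with limma's 95% confidence interval (bars) for the 39 measured matrix genes, ordered by role. The intervals of Loxl1 (0.49 to 3.24) and Timp3 (-1.05 to -0.12) do not reach 0, and those of the other 37 genes do.

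Fibrillar collagens form the cross-striated fibres that give scar and connective tissue their strength. Of 5 measured, none passed, their median mean ratio was -0.0094, and the means of the type I and III genes did not all share a sign. Col1a1 and Col1a2 encode the alpha 1 and alpha 2 chains that assemble into type I collagen. Col1a1 read 0.29, 0.22, 0.61 and 0.45 on arrays 1 to 4. All 4 arrays lay above 0, with a mean of 0.39 ± 0.17 (SD, n = 4 arrays; limma adjusted p = 0.793). Each of its 12 probes also had a mean above 0, from 0.12 to 0.96. On array 2 a single probe read 2.70, while its other probes lay on both sides of 0, from -0.42 to 0.37. Col1a2, with 2 probes, read -0.027, 0.0371, -0.12 and -0.55, a mean of -0.17 ± 0.27. Its ratio lay below 0 on arrays 1, 3 and 4, so that the 2 chains of one collagen differed in the sign of their means, while their intervals of -0.0429 to 0.82 and -0.63 to 0.30 overlapped. With arrays 3 and 4 turned, Col1a1 stood at -0.14 and Col1a2 at 0.17.

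Col3a1 encodes type III collagen, the reticular fibre collagen of the liver. It read -0.016, 0.69, 0.61 and -0.0437, high on arrays 2 and 3 and close to 0 on the others, with a mean of 0.31 ± 0.40. Its 3 probes disagreed, with means of -0.30, 0.35 and 0.89. Col5a1 and Col5a2 encode chains of type V collagen, which sits inside type I fibres and limits their width, and had means of -0.0094 and -0.0716.

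Type VI collagen forms beaded filaments beside the fibres, and type XIV collagen binds to fibre surfaces. Of the 3 genes measured, Col6a1 read -0.52, 0.87, 0.61 and 0.32, below 0 on array 1 only, with a mean of 0.32 ± 0.60. Col6a2 had a mean of 0.0896 ± 0.25 and was likewise below 0 on array 1 only. Col14a1 read 0.17, -0.48, 0.0422 and -0.0244, a mean of -0.0729 ± 0.28 with arrays on both sides of 0.

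Basement membranes are thin sheets of type IV collagen and laminin joined by nidogen, found under bile ducts and vessels, whereas the healthy sinusoid has only sparse amounts of them. None of the 8 measured genes passed, and their median mean ratio was 0.0966. Medians over the 8 genes on arrays 1 to 4 were -0.18, 0.35, 0.37 and 0.0817, lowest on array 1. Col4a1 and Col4a2 encode the chains of the main type IV collagen and are transcribed in opposite directions from a shared start region. That region is shown because both genes are members and one of them stood apart on a single array. RefSeq's GRCm38.p6 window of the Col4a2 start, chr8:11312555-11312854 on the + strand, runs from 250 bases before to 50 bases after the start and shares 78 bases with the corresponding window of Col4a1 on the other strand. Capitals mark matches to the GC box GGGCGG or the CCAAT box CCAAT on either strand.
Col4a2: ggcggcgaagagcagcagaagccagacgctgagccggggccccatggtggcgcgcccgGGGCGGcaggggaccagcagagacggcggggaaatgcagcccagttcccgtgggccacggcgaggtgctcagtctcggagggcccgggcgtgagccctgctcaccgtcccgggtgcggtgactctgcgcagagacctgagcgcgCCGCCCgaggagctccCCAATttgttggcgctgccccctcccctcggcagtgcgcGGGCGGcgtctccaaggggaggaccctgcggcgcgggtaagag

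This window held 3 GC box matches and 1 CCAAT match. Col4a1 read -0.30, 0.56, -0.11 and 0.39, a mean of 0.14 ± 0.41, with probe means from -0.43 to 0.44. Col4a2 read -1.58, 0.30, 0.48 and 0.15. Array 1 lay far below the other arrays, which were all above 0, so the mean of -0.16 ± 0.95 rests on array 1 and was 0.31 without it. Both genes were below 0 on array 1 and above 0 on arrays 2 and 4, and on array 3 their signs differed.

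Laminins are three-chain glycoproteins of the basement membrane, and Lamc1 encodes the gamma 1 chain that most of them contain. Lamc1 read -1.52, 0.40, 0.46 and -0.50, with array 1 lowest and a mean of -0.29 ± 0.93. Lamb1, the beta 1 chain, had a mean of 0.0902 ± 0.59, Lama2, the alpha 2 chain, 0.10 ± 0.33 over 12 probes, and Nid1, nidogen 1, which links laminin to type IV collagen, 0.0617 ± 0.20. Col15a1 and Col18a1 encode basement membrane zone collagens, and the C-terminal fragment of the latter is endostatin. Col18a1 read 0.14, 0.61, -0.0945 and 0.33, below 0 on array 3 only, and had a mean of 0.25 ± 0.30, and Col15a1 had a mean of 0.23 ± 0.48 with array 1 below 0. The lowest and highest of the 8 means were those of Lamc1 and Col18a1 as deposited, but those of Col4a2 (-0.48) and Lama2 (0.18) with arrays 3 and 4 turned.

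Among fibronectin, elastic fibre and proteoglycan genes, 0 of 7 measured passed and the median mean ratio was -0.0183. Bgn encodes biglycan and Lum lumican, small leucine-rich proteoglycans that bind collagen. Bgn read -0.0265, -0.33, -0.51 and -0.46, below 0 on all 4 arrays, with a mean of -0.33 ± 0.22 (limma adjusted p = 0.831). Its 2 probes differed in sign on array 1, at -0.76 and 0.70, and on array 4, at 0.0823 and -1.01. Lum read 0.50, 0.26, 0.40 and 0.065, above 0 on all 4 arrays, with a mean of 0.31 ± 0.19 (limma adjusted p = 0.848). With arrays 3 and 4 turned their means were 0.15 and 0.0752. Eln encodes elastin, the stretchable core of elastic fibres, and read -0.0851, 1.67, -0.55 and 0.33. Array 2 alone was above 1, and the mean was 0.34 ± 0.96, or -0.10 without array 2.

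Fn1 encodes fibronectin, which hepatocytes secrete into plasma and other cells assemble into matrix. Its mean over 12 probes was -0.11 ± 0.33, with -0.59 on array 1 and values from -0.0381 to 0.16 on the others. The 12 probe means, from -0.35 to -0.0364, were all below 0. Sparc, a collagen-binding glycoprotein, had a mean of 0.0417 ± 0.37, and Postn, periostin, -0.18 ± 0.79. Dcn, decorin, is described with the dyes.

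Of 5 stellate cell markers and profibrotic signals, 0 passed, and the median size of their mean ratios was 0.0266 as deposited and 0.20 with arrays 3 and 4 turned. Acta2, the smooth muscle actin that marks myofibroblasts, read -0.34, -0.0946, 0.30 and 0.0599, a mean of -0.0189 ± 0.27 over 14 probes with an interval of -0.48 to 0.45. Des, desmin, an intermediate filament of resting and activated rodent stellate cells, read 0.31, 0.0074, -0.15 and 0.19, a mean of 0.0899 ± 0.20 over 10 probes. Tgfb1, the ligand TGF-beta 1 that drives collagen synthesis, read 0.0146, 0.19, -0.0844 and -0.12. Its values crossed 0 in a narrow range, with a mean of -0.0004 ± 0.14 over 10 probes, the smallest spread of all 39 genes, and an interval of -0.43 to 0.43.

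Pdgfrb, the receptor through which PDGF makes stellate cells divide, had a mean of 0.0266 ± 0.45. Ccn2, the connective tissue growth factor listed as Ctgf and a known TGF-beta target, read -1.16, 0.0584, -0.65 and 0.83 from 1 probe. Arrays 1 and 3, which share wild-type animal 2, were low and arrays 2 and 4, which share animal 4, were above 0, and the mean was -0.23 ± 0.87. Col4a1 and Eln split by sign in the same way, and Col14a1 in the opposite way. The share of all genes with such a split was not computed.

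Lysyl oxidases oxidise lysines of collagen and elastin so that the fibres cross-link. All 3 measured genes had a mean above 0, each from 1 probe and with a wide spread. Loxl1, needed for elastic fibre upkeep in mice, read 1.98, 4.04, 0.13 and 1.32. All 4 arrays were above 0, array 2 highest and array 3 lowest, with a mean of 1.86 ± 1.64 (SD, n = 4 arrays), the highest of the 39. The measured ratio was 3.64-fold, with limma's unadjusted p = 0.0155 and adjusted p = 0.544. Its mean was 1.14 with arrays 3 and 4 turned, 1.14 without array 2 and 2.44 without array 3. Lox read 2.20, -0.0069, -0.92 and 0.24, high on array 1 and below 0 on arrays 2 and 3, with a mean of 0.38 ± 1.31, or -0.23 without array 1. Loxl2 read 0.53, 0.78, -0.87 and 0.0675, below 0 on array 3 only, with a mean of 0.13 ± 0.73. In each of the 3 genes array 3 was the lowest.

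Of 5 proteases, 0 passed, and their median mean ratio was -0.18 with 4 of 5 means below 0 as deposited, but 0.20 with 3 of 5 above 0 when arrays 3 and 4 were turned. Mmp13, the main interstitial collagenase of rodents, read -0.38, -0.22, -0.0648 and -0.0556. All 4 arrays lay below 0 by small amounts, with a mean of -0.18 ± 0.15 and an interval of -0.61 to 0.25. Adamts1, a secreted protease that cleaves proteoglycans such as versican, read 0.56, -0.68, -0.55 and -0.36. Array 1 was above 0 and the others below, with a mean of -0.26 ± 0.56, or -0.53 without array 1. Mmp14, the membrane-bound MMP that activates the gelatinase MMP2, had a mean of -0.18 ± 0.57 with array 3 alone above 0, and Mmp9, the other gelatinase, -0.0021 ± 0.30 over 11 probes. Mmp2 had a mean of 0.0075 ± 0.76 whose small size comes from opposite values on the 2 dye orientations.

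The 3 TIMP genes had 0 past the threshold and a median mean ratio of 0.058, with Timp1 and Timp2 above 0 and Timp3 below. Windows of the same kind around the starts of Timp1 (chrX:20869916-20870215, + strand) and Timp3 (chr10:86300162-86300461, + strand) are shown because these genes had the highest and the lowest mean of the 3, with matches to the GC box and the CCAAT box in capitals (RefSeq, GRCm38.p6).
Timp1: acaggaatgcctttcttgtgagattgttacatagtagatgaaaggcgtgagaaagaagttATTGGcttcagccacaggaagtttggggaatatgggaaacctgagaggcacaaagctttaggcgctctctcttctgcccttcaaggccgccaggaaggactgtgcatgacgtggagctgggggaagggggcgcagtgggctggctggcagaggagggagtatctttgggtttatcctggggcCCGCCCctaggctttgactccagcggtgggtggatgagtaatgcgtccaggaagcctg
Timp3: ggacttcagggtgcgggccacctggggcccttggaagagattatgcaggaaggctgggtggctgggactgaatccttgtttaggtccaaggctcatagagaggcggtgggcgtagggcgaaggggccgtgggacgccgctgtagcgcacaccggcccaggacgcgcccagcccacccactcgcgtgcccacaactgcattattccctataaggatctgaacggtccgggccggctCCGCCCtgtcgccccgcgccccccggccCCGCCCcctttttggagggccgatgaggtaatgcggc

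The Timp1 window held 1 GC box match and 1 CCAAT match, and the Timp3 window held 2 GC box matches and 0 CCAAT matches. Neither held an exact match to TGANTCA, the AP-1 letters searched, and variants of those letters were not sought. Timp3, whose product binds to the matrix itself, read -0.67, -0.90, -0.55 and -0.23. All 4 arrays were below 0, with a mean of -0.59 ± 0.28 (SD, n = 4 arrays) and 1 probe. The limma p was 0.0215 unadjusted and 0.607 adjusted, so the gene did not pass. Turning arrays 3 and 4 gave -0.20.

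Timp1, the TIMP most often raised in liver injury, read 0.0714, 1.36, 0.35 and 0.13. Each array was above 0 and array 2 stood highest, with a mean of 0.48 ± 0.60 (limma adjusted p = 0.831). That height came from 1 of its 3 probes, which read 0.26, 4.33, 0.63 and 0.15, while the other 2 probes read 0.20, 0.0762, -0.23 and 0.0684 and -0.25, -0.32, 0.66 and 0.15. Without array 2 the gene mean was 0.18. Timp2, which also takes part in MMP2 activation, had a mean of 0.058 ± 0.41.

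Promoter windows were found in the RefSeq table for 24 of the 39 genes, some with several windows, 27 in all. GC box letters were in 18 of 27 windows, beside 35.7% of all 32851 windows in the table, CCAAT in 10 of 27, beside 37.4%, and TGANTCA in 2 of 27, beside 7.81%. The windows with TGANTCA were those of Col6a1 and Mmp13. All motifs were sought on both strands, and a match describes letters only.

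Counted by sign, 4 of the 39 genes were above 0 on all 4 arrays (Col1a1, Lum, Loxl1 and Timp1), beside 7.69% of all genes, and 3 were below 0 on all 4 (Bgn, Mmp13 and Timp3), beside 8.16%. Those 7 genes came from 5 of the 8 role groups. As deposited, 0 of 8 basement membrane genes had one sign on all 4 arrays, as did 0 of 5 stellate cell markers and profibrotic signals. The shares over all genes were the 7.69% and 8.16% given above. With arrays 3 and 4 turned, 3 of those 5 had one sign on all 4 arrays, beside 17.4% of all genes. Group medians of the mean ratio ran from -0.18 for the proteases to 0.38 for the lysyl oxidases, where the 3 genes rest on 1 probe each. With arrays 3 and 4 turned they ran from -0.20 for the stellate cell markers and profibrotic signals to 0.72 for the lysyl oxidases, so that the low end was another group. On single arrays the median of the fibrillar collagens was 0.21, 0.22, -0.0732 and -0.0088, that of the proteases 0.0744, -0.22, -0.11 and -0.36 and that of the TIMPs 0.0714, 0.55, -0.44 and 0.0347, and each crossed 0 between arrays. The median of all 39 genes was 0.0111, 0.22, -0.0648 and 0.0347 on arrays 1 to 4, highest on array 2. Medians over all genes on the same arrays were -0.0014, 0.011, -0.0086 and -0.0075.

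Signs were also compared between the 2 dye orientations, which held different mutant animals. For 7 of the 39 the 2 arrays with the mutant in Cy5 had one sign and the 2 arrays with the mutant in Cy3 the other. That is close to the share over all genes, 17.4%. The 7 matrix genes are named because they are members, not because the split was particular to them. These 7 were Dcn, Sparc, Acta2, Pdgfrb, Tgfb1, Mmp2 and Mmp9. Mmp2, which encodes gelatinase A and is made by stellate cells and fibroblasts, read 0.86, 0.42, -0.58 and -0.67. Dcn, the proteoglycan decorin that binds collagen and TGF-beta, read 1.02, 0.24, -0.98 and -0.37. Its 2 probes were unlike each other, one at -0.70, -0.63, -0.66 and -0.27 and the other at 2.75, 1.12, -1.29 and -0.46, so that the split came from the second. Sparc and Pdgfrb ran the opposite way, with means of -0.27 and -0.28 on arrays 1 and 2 and of 0.36 and 0.33 on arrays 3 and 4.

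When limma was given a dye coefficient, Dcn, Loxl1 and Mmp2 had an unadjusted p under 0.05 for that coefficient, beside 8.82% of all genes, and none passed after adjustment (smallest adjusted p = 0.556). Loxl1 had means of 3.01 with the mutant in Cy5 and 0.72 with it in Cy3. With arrays 3 and 4 turned, Mmp2 had a mean of 0.63 ± 0.18 and Dcn of 0.65 ± 0.41. They were the only 2 of the 39 with an unadjusted p under 0.05 in that orientation, beside 7.95% of all genes, and limma's adjusted p was 0.622 for each. Loxl1 and Timp3 were not past that level when turned. The sign of the mean changed in 16 of the 39 genes, Col1a1, Col1a2, Bgn and Dcn among them. The share of all genes that change sign when turned was not computed. Collagen means became 0.30 for Col5a1, -0.15 for Col6a1, -0.0064 for Col4a1 and -0.31 for Col15a1. Other structural genes became -0.36 for Lamb1, -0.006 for Nid1, -0.32 for Sparc and 0.40 for Postn. The signalling and protease genes became -0.31 for Pdgfrb, 0.10 for Tgfb1, 0.23 for Mmp9 and 0.20 for Adamts1. The dye and the mutant animals cannot be told apart on single genes, since each mutant was labelled once.

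**Figure D3:**
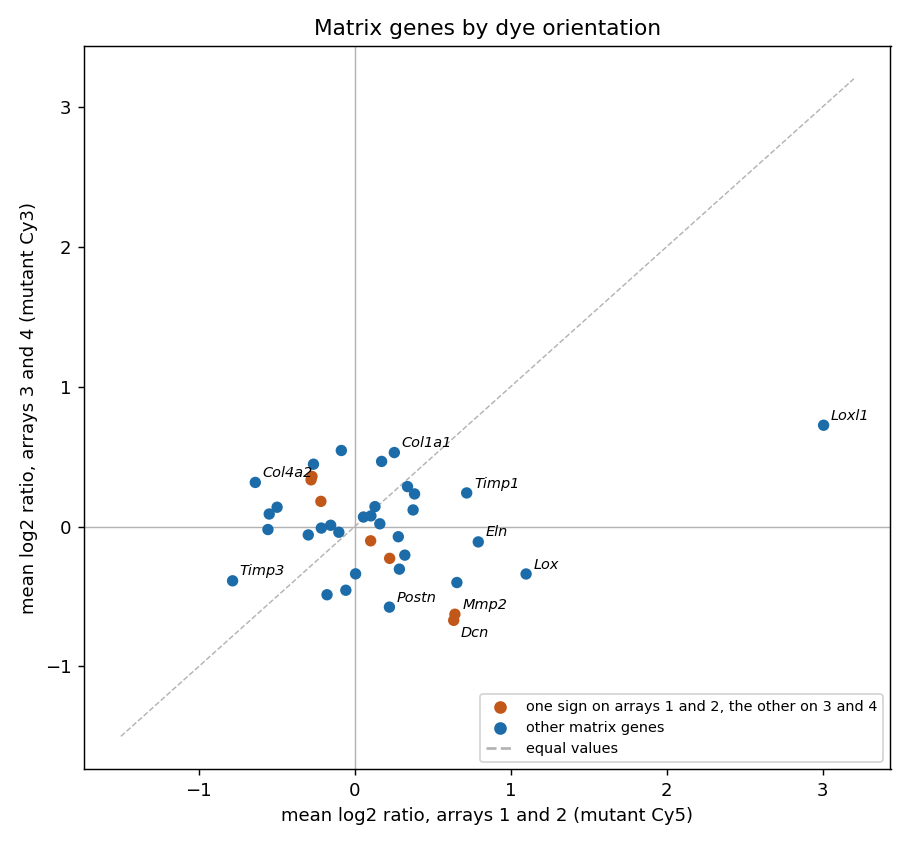
Mean log2 ratio of each matrix gene on arrays 1 and 2 (mutant in Cy5, horizontal) against arrays 3 and 4 (mutant in Cy3, vertical), with the dashed line of equal values. The 7 genes with one sign on arrays 1 and 2 and the other on arrays 3 and 4 (orange) lie in the upper left and lower right fields, Mmp2 at 0.64 and -0.63 and Dcn at 0.63 and -0.67.

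Precision varied with the number of probes behind a gene. The 7 matrix genes with 10 or more probes (Col1a1, Lama2, Fn1, Acta2, Des, Tgfb1 and Mmp9) had SDs over the arrays from 0.14 to 0.33, median 0.27. The 16 with 1 probe had SDs from 0.15 to 1.64, median 0.59. Over all genes the median SD was 0.25 with 10 or more probes and 0.55 with 1. Means of the 7 well covered genes ran from -0.11 (Fn1) to 0.39 (Col1a1). Probes of a gene share the RNA of an array and are not independent measurements, and the sources used here do not say whether they repeat one sequence.

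**Figure D4:**
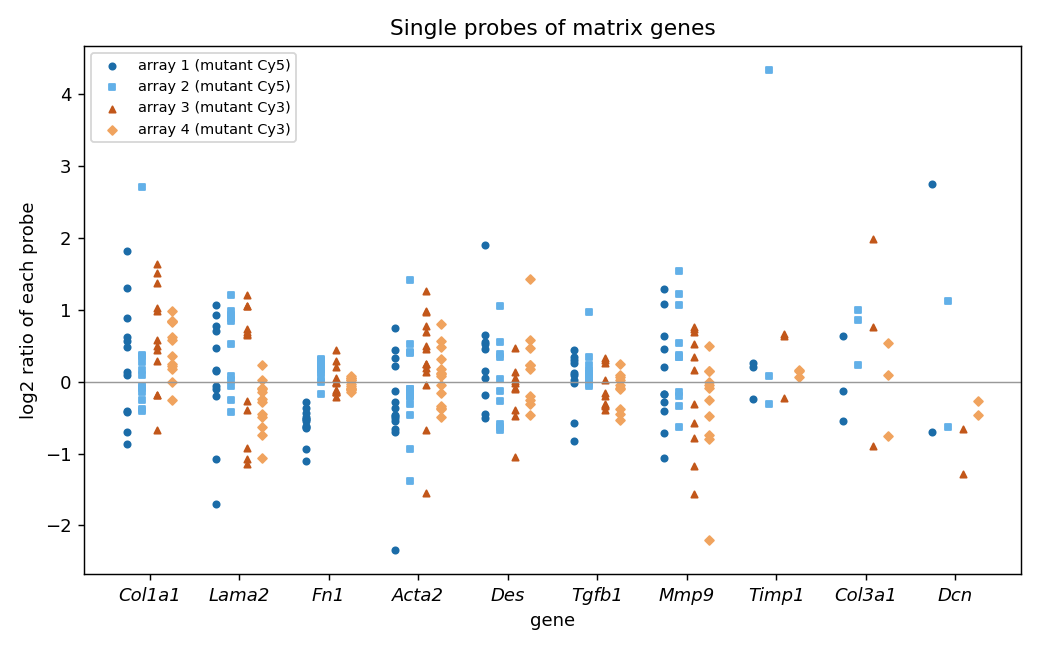
Log2 ratio of each single probe (points) on arrays 1 to 4 for the 7 matrix genes with 10 or more probes and for Timp1, Col3a1 and Dcn. On array 2, a Timp1 probe at 4.33 and a Col1a1 probe at 2.70 lie far from the other probes of their gene. So does a Dcn probe at 2.75 on array 1.

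Of 122 further matrix pathway genes measured in 8 lists, 0 rose and 0 fell by limma's adjusted p, and 9 had an unadjusted p under 0.05. Over all genes those shares were 0.246% and 6.64%. Which gene stood highest or lowest in a list is given as deposited, and the sign of 6 of the 16 named genes changed with arrays 3 and 4 turned. For that count too, the share over all genes was not computed. List medians ran from -0.19 (PDGF ligands and the receptor Pdgfra) to 0.14 (other matrix proteases). In the TGF-beta and SMAD list, 0 of 18 passed. The ends of that list were the ligand gene Tgfb2 at 0.44 ± 0.46 and the co-receptor gene Tgfbr3 at -0.62 ± 0.87. PDGF genes, 0 of 5 past the threshold, ran from the receptor Pdgfra at -0.22 ± 0.26 (0.0857 turned) to the ligand Pdgfa at 0.40 ± 0.36.

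Among enzymes that modify and fold collagen, 0 of 16 passed. Plod2, a lysyl hydroxylase, stood highest at 0.92 ± 1.32 with 2.83 on array 3, and Colgalt1, which adds galactose to collagen, lowest at -0.48 ± 0.23. With arrays 3 and 4 turned they stood at -0.88 and 0.0011. Receptors for matrix ran from the integrin gene Itgb3 at -0.23 ± 0.58 to Itga7 at 0.60 ± 1.29 (-0.96 turned), with 0 of 18 past the threshold. The 2 probes of Itga7 had means of -0.38 and 1.58. Among other interstitial matrix genes, 0 of 19 passed, and Col12a1, a fibre-associated collagen, read 0.78, 0.67, 0.90 and 0.42, above 0 on all 4 arrays, with a mean of 0.69 ± 0.20 that became 0.0306 when turned. Thbs2, a matrix glycoprotein, was the lowest of them at -0.73 ± 0.99.

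The other basement membrane genes, 0 of 12 past the threshold, held the smallest unadjusted p-values among the 16 named pathway genes, in chains of the laminin that anchors epithelia. Lamb3 read -1.22, -1.48, -0.55 and -1.02, below 0 on all 4 arrays, with a mean of -1.07 ± 0.39 (limma adjusted p = 0.200). Lama3 read 1.20, 0.66, 0.69 and 0.86, above 0 on all 4, with a mean of 0.85 ± 0.25 (limma adjusted p = 0.259), although both chains assemble into one protein. The 2 probes of Lama3 were unlike each other, with means of 0.25 and 1.45. With arrays 3 and 4 turned the means of Lamb3 and Lama3 were -0.28 and 0.0767. Other matrix proteases, 0 of 26 past the threshold, ran from Mmp11 at -0.88 ± 1.43, where array 3 read -2.98 and the turned mean was 0.63, to Mmp7 at 0.83 ± 0.83, where array 1 read 2.01. Of the plasmin system and other inhibitors, 0 of 8 passed, and Serpinf2, the plasma inhibitor of plasmin, was highest at 0.63 ± 0.25 (0.0811 turned) and A2m, a broad protease inhibitor, lowest at -0.12 ± 1.06 (0.79 turned).

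Markers of the cell types that make matrix were set beside these values. Some markers (Des, Pdgfrb, Acta2 and Eln) are themselves among the 39 genes. Of 14 stellate cell markers, 0 passed, the list median was -0.15 and array medians ran from -0.31 to -0.0224. As deposited, means of 4 of the 14 were above 0 and 10 below, beside 49.3% of all genes above 0. The means ran from Lhx2, a transcription factor of resting stellate cells, at -1.25 ± 1.19 to Ngfr, a neurotrophin receptor, at 0.13 ± 0.0846. With arrays 3 and 4 turned, Lhx2 stood at 0.84 and Ngfr at -0.0529. Below 0 on all 4 arrays were 3 (Colec11, Lhx2 and Vipr1), beside the 8.16% of all genes, and above 0 on all 4 was 1 (Ngfr), beside 7.69%. With arrays 3 and 4 turned, the means of Colec11 and Vipr1 were 0.0921 and 0.24. Of the 10 endothelium genes, 3 were likewise below 0 on all 4 arrays as deposited and 1 was above. Medians of other lists were -0.0189 for smooth muscle and myofibroblasts (7 genes), 0.0055 for portal fibroblasts (6), 0.20 for mesothelium (5), -0.0813 for endothelium (10) and 0.0525 for Kupffer cells (6). They were 0.006 for bile duct cells (5), 0.0931 for hepatocytes (6), -0.0121 for adipocytes (5) and -0.11 for neutrophils (5). In these 10 lists 0 of 69 entries passed limma's adjusted threshold and 10 had an unadjusted p under 0.05, beside 0.246% and 6.64% of all genes. The part of cell makeup in the ratios of the matrix genes was not tested.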

How the data were processed

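RNA from mouse liver was hybridised to 4 two-colour arrays, labelled with a protocol from Agilent. The authors deposited log2 ratios, 1 per probe and array, and the submitters' processing notes name limma, with no version. The log base is read from limma's convention, and a natural log is possible from the values. The sources used here do not give background correction, normalization, filters, ratio direction or genome build. There were 43379 probes with 0 missing values and array medians of 0.0121, 0.0075, -0.0083 and -0.0066. The platform annotation gave 1 gene symbol to 33653 probes, several to 56 and none to 9670. Ratios of a gene's probes were averaged.

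The 19087 genes were tested with limma 3.58.1 in R 4.3.3 (intercept only, eBayes, two-sided against 0) with Benjamini-Hochberg adjustment and a threshold of 0.05. The series text calls the arrays biological replicates, but arrays that share a wild-type animal are not independent. The fit was tested on simulated data with independent arrays, which cannot show how it behaves with shared wild-type animals, dye effects or spatial trends. The 42 members, their role groups and the other lists were chosen with earlier results of these data known. An earlier rule based on correlations between arrays called for turning arrays 3 and 4. It had been set aside with the data in view, and the values were used as deposited here too. Named beside the members were, in each pathway list, genes past the threshold or else the highest and lowest mean. The cell type genes named are the ends of the stellate list and those with one sign on all arrays, chosen after their values were seen. Alternatives were turned arrays, each array left out, medians over probes, a running median over 11 x 11 spots of the 85-column layout subtracted, arrays scaled to one spread, a random block for the wild-type animal, and a dye coefficient. Promoter windows come from RefSeq (GRCm38.p6).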

Additional observations from a re-analysis of the deposited data

Results flagged for a closer look

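Col4a2, a chain of type IV collagen, read -1.58 on array 1, far from the 0.15 to 0.48 of the other arrays relative to the range of the 4. It was the only one of the 39 matrix genes, 16 named pathway genes and 8 role group medians to stand apart in this way, and chance gives about 1 in 20. One of its 2 probes read -2.41 and the other -0.74 on that array.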

How the results depend on the processing

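The count of matrix genes past the threshold was 0 under every alternative run, with the smallest adjusted p between 0.182 (random block for the wild-type animal) and 0.985 (without array 4). At an unadjusted p under 0.05 there were 1 to 3. The median of their means ran from -0.018 (without array 2) to 0.0728 (without array 3). Over all genes the count of 47 became 122 with the spatial trend subtracted, 15 with arrays scaled to one spread, 194 with the random block and 0 with arrays 3 and 4 turned (1518 at an unadjusted p under 0.05, limma), and ran from 0 to 34 when an array was left out. It was 0 without array 2 or array 4 (940 and 926 at an unadjusted p under 0.05) and 9 without array 3. The cause was not tested, beyond the fewer arrays. No direction of a matrix gene was called. The sign of the mean changed in 16 of 39 genes with arrays 3 and 4 turned, in 5 to 10 when an array was left out, in 6 with the trend subtracted and in 2 each with medians over probes or scaled arrays. Under every alternative run, 9 genes kept their sign: Col3a1, Col18a1, Lum, Des, Loxl1, Mmp13, Mmp14, Timp1 and Timp3. That is partly fixed in advance: the random block and the dye coefficient leave every mean unchanged here. Leaving out an array also cannot change the sign of a gene with one sign on all 4 arrays. Shares over all genes were not computed for these sign counts. The random block had a consensus correlation of -0.367, which narrows the error, so its added calls (Lamb3 at an adjusted p of 0.0498 among the named pathway genes) do not allow for the shared wild-type animals. No paired analysis was possible because no second group shares the replicate numbers: each ratio already sets a mutant against a wild type.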
